A study of Mus musculus with 2 samples.

Results

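A small set of microglia and macrophages, the phagocytes of the central nervous system, was carried in a sort for tdTomato-positive cells of the mouse spinal cord. The cells were chosen by their own transcript counts: they are those that the authors kept but left out of their set of EpA ependymal cells, with at least 10 unique molecular identifiers (UMIs, each standing for 1 captured transcript) summed over the complement genes C1qa, C1qb and C1qc. A further condition was fewer than 5 UMIs summed over the endothelial genes Cldn5, Flt1, Kdr and Pecam1. These conditions held for 63 of 1939 kept cells: 34 of 711 in the uninjured library and 29 of 1228 in the injured library. The question of the study was what an injury of the cord changes in the RNA of ependymal cells. All mice were C57BL/6J, at least 12 weeks old, and carried Troy-CreERT2+/- and the Rosa26-tdTomato reporter, so the uninjured animals had the same alleles as the injured ones. Troy is another name of Tnfrsf19, and CreERT2 recombines the reporter in the presence of tamoxifen. One library was made from the intact cord and the other from the cord on day 3 after an incision of the dorsal funiculus, each from segments of 5 mm. Tissue was dissociated with papain, sorted on tdTomato fluorescence and processed with a 10x Genomics 3′ v2 kit. How many mice went into a library, whether they were pooled and how tamoxifen was given is not stated in the sources used here. With 1 library per condition there was no replicate and no test. Ranges in brackets are 95% intervals that cover counting error alone, and the cells of a library are not replicates of its condition.

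Microglia are resident phagocytes of the brain and spinal cord that settle there before birth, while monocytes from the blood enter injured tissue and become macrophages. Resting microglia carry the purinergic receptor P2ry12, the fractalkine receptor Cx3cr1 and the growth factor receptor Csf1r. Near damage they are known to take up debris through the receptor Trem2 with its adaptor Tyrobp (Dap12), and to express a programme of lipid, lysosome and matrix genes that includes Apoe, Spp1 and Gpnmb.

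The label of the cell type was checked with 16 markers, of which the 3 C1q genes had chosen the cells. Summed over the cells of a library, the other 13 markers reached 33724 CPM (UMIs of the gene per 1000000 UMIs) in the uninjured and 15772 CPM in the injured library, against 49.0 and 44.9 CPM in the EpA cells of the same libraries. With the C1q genes the sums were 55382 and 31009 CPM. Each of the 13 was detected in both libraries. Tyrobp, which the choice of cells did not use, had a UMI in 33 of 34 uninjured and 29 of 29 injured cells, and Trem2 in 33 of 34 and 29 of 29. The 10 ependymal markers summed to 70.4 and 67.8 CPM, against 15322 and 5025 CPM in EpA cells, although the labels give ependymal cells as the sorted type. The 5 T and NK cell markers and the 4 erythroid markers were at 0 in both libraries. Of the neutrophil list, S100a9, Ly6g, Retnlg and Camp were at 0 and S100a8 gave 2 and 11 UMIs. Of the dendritic cell list, Flt3, Cd209a, Xcr1 and Clec9a were at 0 and Zbtb46 gave 0 and 1 UMIs. Lists of other cell types of the cord gave low counts. The 5 markers of oligodendrocyte precursors gave 0 uninjured UMIs and 33 injured ones, in 11 cells, and 23 of the 33 were of Cspg4, in 7 cells. The 5 neuron markers had 2 and 34 UMIs, in 2 and 4 cells, and 32 of the 34 lay in the 2 injured cells with most tdTomato. The 6 oligodendrocyte markers had 14 and 19 UMIs, in 11 and 10 cells, and the 6 astrocyte markers 19 and 19, in 10 and 7 cells. The B cell gene Cd79b gave 7 and 7 UMIs, in 7 and 3 cells. The endothelial, pericyte and fibroblast lists held at most 6 UMIs each in a library. The part of these transcripts in the results was not tested. No doublet caller was run on these cells.

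The 3 C1q genes chose the cells, so their values describe the choice. The uninjured cells held 14 C1q UMIs at the lowest, 145.5 at the median and 318 at the highest, and the injured cells 21, 313 and 1069. Just outside the limit, the highest kept cells outside EpA that missed it held 6 and then 1 UMIs in the uninjured library, and 2 and then 2 in the injured library. The endothelial condition removed 0 cells. Of the EpA cells, 16 of 555 uninjured (2.88%) and 38 of 1004 injured ones (3.78%) had any C1q UMI, as did 5 of 122 (4.10%) and 16 of 195 (8.21%) of the other kept cells outside EpA. Of 18 barcode sequences that occurred in both libraries, 0 were microglia or macrophages.

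As sequence context for the genes of these cells, 4 promoters were taken from RefSeq on the GRCm38.p6 build and searched for GAGGAAGT, the core of the motif bound by the myeloid factor PU.1 (encoded by Spi1), and for its reverse complement ACTTCCTC. C1qc and Ctss are the marker genes whose promoters held the motif. Spp1 and Pf4 are shown, after their values had been seen, because their levels differed by far between the libraries. Each sequence runs 5′ to 3′ on the strand of the gene, from 220 bases before to 30 bases after the annotated start, with the motif in capitals.
C1qc: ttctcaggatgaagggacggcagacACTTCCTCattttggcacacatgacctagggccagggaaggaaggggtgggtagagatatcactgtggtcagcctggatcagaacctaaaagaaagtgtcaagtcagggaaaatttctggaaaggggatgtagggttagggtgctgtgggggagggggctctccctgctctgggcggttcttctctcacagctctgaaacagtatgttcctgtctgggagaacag
Ctss: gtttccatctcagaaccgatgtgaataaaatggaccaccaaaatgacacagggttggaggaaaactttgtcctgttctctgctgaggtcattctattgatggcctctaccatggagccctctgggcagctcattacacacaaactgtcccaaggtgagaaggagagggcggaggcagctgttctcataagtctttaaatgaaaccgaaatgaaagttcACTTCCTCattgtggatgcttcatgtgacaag
Spp1: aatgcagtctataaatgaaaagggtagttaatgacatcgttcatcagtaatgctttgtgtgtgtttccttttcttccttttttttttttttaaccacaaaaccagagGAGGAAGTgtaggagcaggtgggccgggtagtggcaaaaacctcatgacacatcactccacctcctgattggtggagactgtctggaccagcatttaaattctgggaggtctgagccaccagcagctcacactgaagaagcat
Pf4: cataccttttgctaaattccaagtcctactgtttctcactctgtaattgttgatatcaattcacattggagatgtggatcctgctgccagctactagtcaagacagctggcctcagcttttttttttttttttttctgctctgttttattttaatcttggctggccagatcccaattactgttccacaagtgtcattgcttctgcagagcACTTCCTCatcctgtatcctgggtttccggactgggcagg
The windows lie at chr4:136892885-136893134 on the minus strand (C1qc), chr3:95526566-95526815 on the plus strand (Ctss), chr5:104434891-104435140 on the plus strand (Spp1) and chr5:90772215-90772464 on the plus strand (Pf4). The first base of the match lies 195, 2, 113 and 10 bases before the start, in that order. Over windows of 300 bases, 2 of 13 promoters of 11 of the 16 markers held the motif (15.4%), as did 7 of 118 promoters of 96 of the 130 genes named by rule (5.93%) and 3.20% of all 32851 promoters. A match is a description of letters and shows no binding.

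The cells made up 21.8% (15.6 to 29.1) of the 156 kept uninjured cells outside EpA and 12.9% (8.84 to 18.1) of the 224 injured ones. Of all kept cells they were 4.78% (3.33 to 6.62) and 2.36% (1.59 to 3.37). The sort decides what enters these totals, so the shares do not measure how many such cells the cord held. Injured cells were much deeper. The uninjured cells had 1285 to 13848 UMIs (median 7296) and the injured cells 1490 to 69910 (median 25062), and 17 injured cells exceeded the deepest uninjured cell. EpA cells of the same libraries had medians of 11387 and 20158.5 UMIs. The median share of mitochondrially encoded UMIs was 3.32% and 3.39%, and 1 uninjured and 3 injured cells were at or above 10%. More transcripts per cell and more efficient capture cannot be told apart here.

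Levels were compared as CPM of the 227348 uninjured and 722365 injured UMIs of these cells. A gene was called by size alone, at 2-fold between the libraries with at least 200 CPM and 10 UMIs in the higher one. Of 882 genes above that floor, 212 were higher in the injured library (24%) and 207 lower (23.5%), which is the background for every count below. The counting interval alone stayed beyond 2-fold for 106 of the higher and 156 of the lower genes. A gene above the floor in 1 library only could be called with ease, and this held for 244 genes of the injured and 203 of the uninjured library. Among the 435 genes above the floor in both, 54 were higher and 52 lower. The median log2 ratio of the 882 genes was 0.25, and under TMM scaling it was 0.58, with 339 genes higher and 148 lower. All 212 higher genes were still called under TMM scaling, but of the 207 lower genes only 148 were. Ratios below are on the total-UMI scale and are best read relative to that median.

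**Figure D1:**
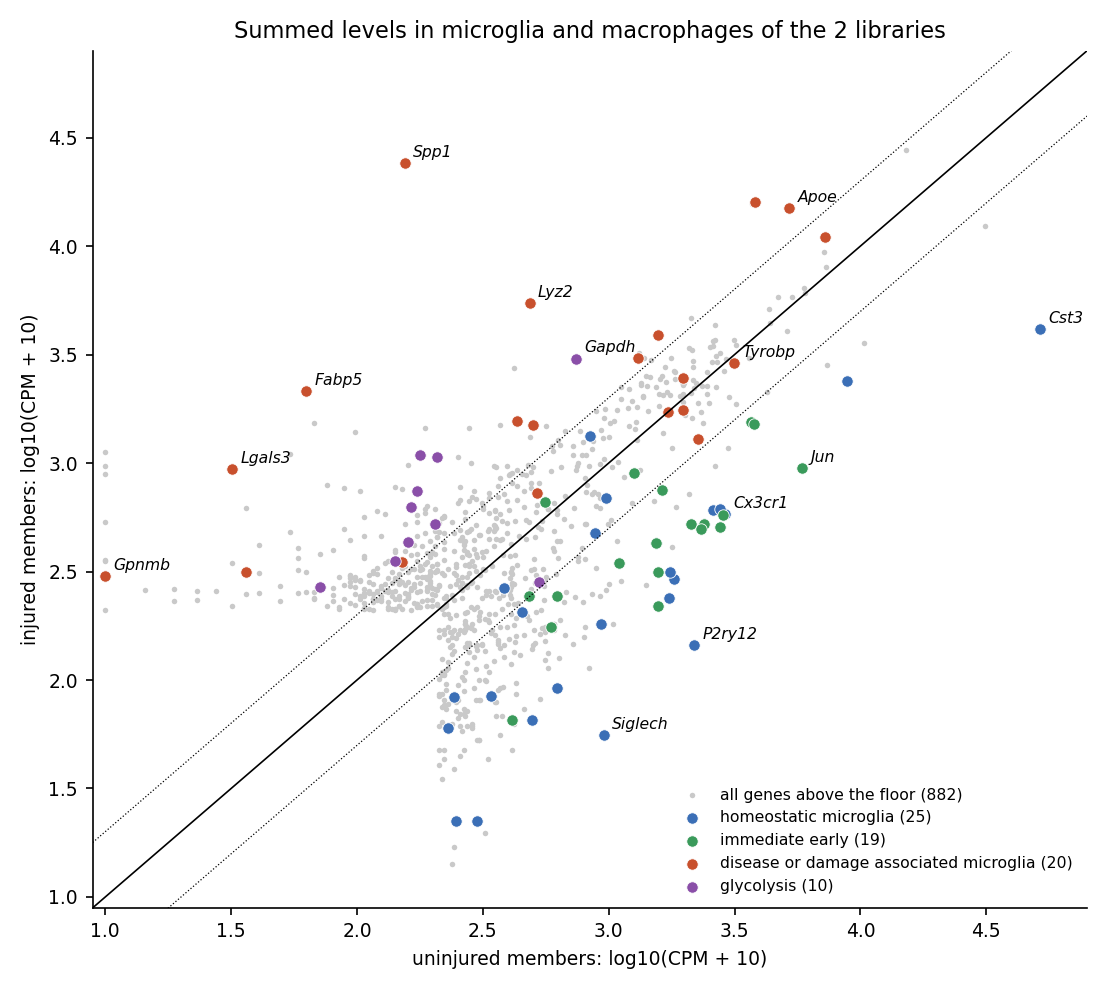
Summed level of each of 882 genes in the uninjured (horizontal) and injured (vertical) microglia and macrophages, as log10 of CPM plus 10, with 4 gene lists in colour. The solid line marks equal levels and the dotted lines 2-fold; homeostatic and immediate early genes lie mostly below the lower dotted line, and Spp1, Lyz2, Fabp5 and Lgals3 lie far above the upper one.

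Genes of resting microglia were lower in the summed cells of the injured library. Of 25 homeostatic genes above the floor (of 27 listed), 21 were at least 2-fold lower and 0 higher, with a median log2 ratio of -2.21, although 11 of the 25 were above the floor in the uninjured library only. Under TMM scaling 19 were 2-fold lower. The list also holds the Jun family gene Jund (log2 ratio -2.21, the value at the median) and Rhob (-1.88). P2ry12, a receptor for ADP that guides microglial processes, had a lowest, median and highest cell of 0, 2005 and 6987 CPM in the uninjured library and 0, 58.8 and 2324 CPM in the injured one. The cells of the libraries overlapped, but 28 of 29 injured cells lay below the uninjured median. Summed over cells, P2ry12 stood at 2168 CPM (1981 to 2369) against 134 CPM (109 to 164), 16.1-fold lower (12.97 to 20.3). The sums weigh deep cells more: the log2 ratio of P2ry12 was -4.01 from the sums and -2.40 with every cell weighted alike. Both weightings pool microglia with macrophages. The injured cell with most P2ry12 (20 UMIs) had 4 Lyz2 UMIs, and the one with most Lyz2 (854 UMIs) had 1 P2ry12 UMI. The part of a changed mix of cells in this and the other ratios was not tested. After thinning each cell to 1000 UMIs, 28 of 34 uninjured (82.4%, 65.5 to 93.2) and 8 of 29 injured cells (27.6%, 12.7 to 47.2) had a P2ry12 UMI, against 0% and 0.100% of EpA cells. Without thinning it was 32 and 19 cells.

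Cx3cr1, the receptor for the neuronal chemokine fractalkine, stood at 2885 and 573 CPM, 5.03-fold lower (4.45 to 5.71), with per-cell medians of 2611 and 455 CPM. Siglech, a sialic acid-binding lectin of microglia, stood at 946 and 45.7 CPM, with a UMI in 29 uninjured and 9 injured cells. Tmem119, a membrane protein used to tell microglia from macrophages, was 5.40-fold lower (4.30 to 6.80), at 919 and 170.3 CPM. Below the uninjured median lay 27 of 29 injured cells for Cx3cr1, 28 for Siglech and 28 for Tmem119, and for each gene the cells of the libraries overlapped.

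The most abundant of the list was Cst3, the secreted cathepsin inhibitor cystatin C. Its uninjured cells ranged from 4435 through a median of 49758 to 144374 CPM, and its injured cells from 809 through 3222 to 35995 CPM. Of the 29 injured cells, 29 lay below the uninjured median and 16 below every uninjured cell. The sum was 12.5-fold lower (12.0 to 12.999), at 51652 and 4138 CPM. Csf1r, the receptor on which microglial survival depends, was 4.56-fold lower (4.03 to 5.16), at 2745 and 602 CPM. Fcrls, Olfml3, Ltc4s and Itgb5 differed by less than 2-fold, and Fcrls, an Fc receptor-like scavenger receptor, had the higher value in the injured library (831 and 1322 CPM). The 15 smallest ratios of all genes also held Csmd3 (229 and 4.15 CPM), Adgrg1 (233 and 6.92 CPM), Lag3 (312 and 9.69 CPM), Crybb1 (290.3 and 12.5 CPM) and Slc2a5, a fructose transporter (238 and 12.5 CPM). Csmd3 rests on 3 injured UMIs, a value 55.1-fold lower (17.8 to 276). Sall1, a transcription factor of microglial identity, was below the floor at 167 and 18.0 CPM, and EpA cells also carried it at 90.8 and 74.2 CPM.

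**Figure D2:**
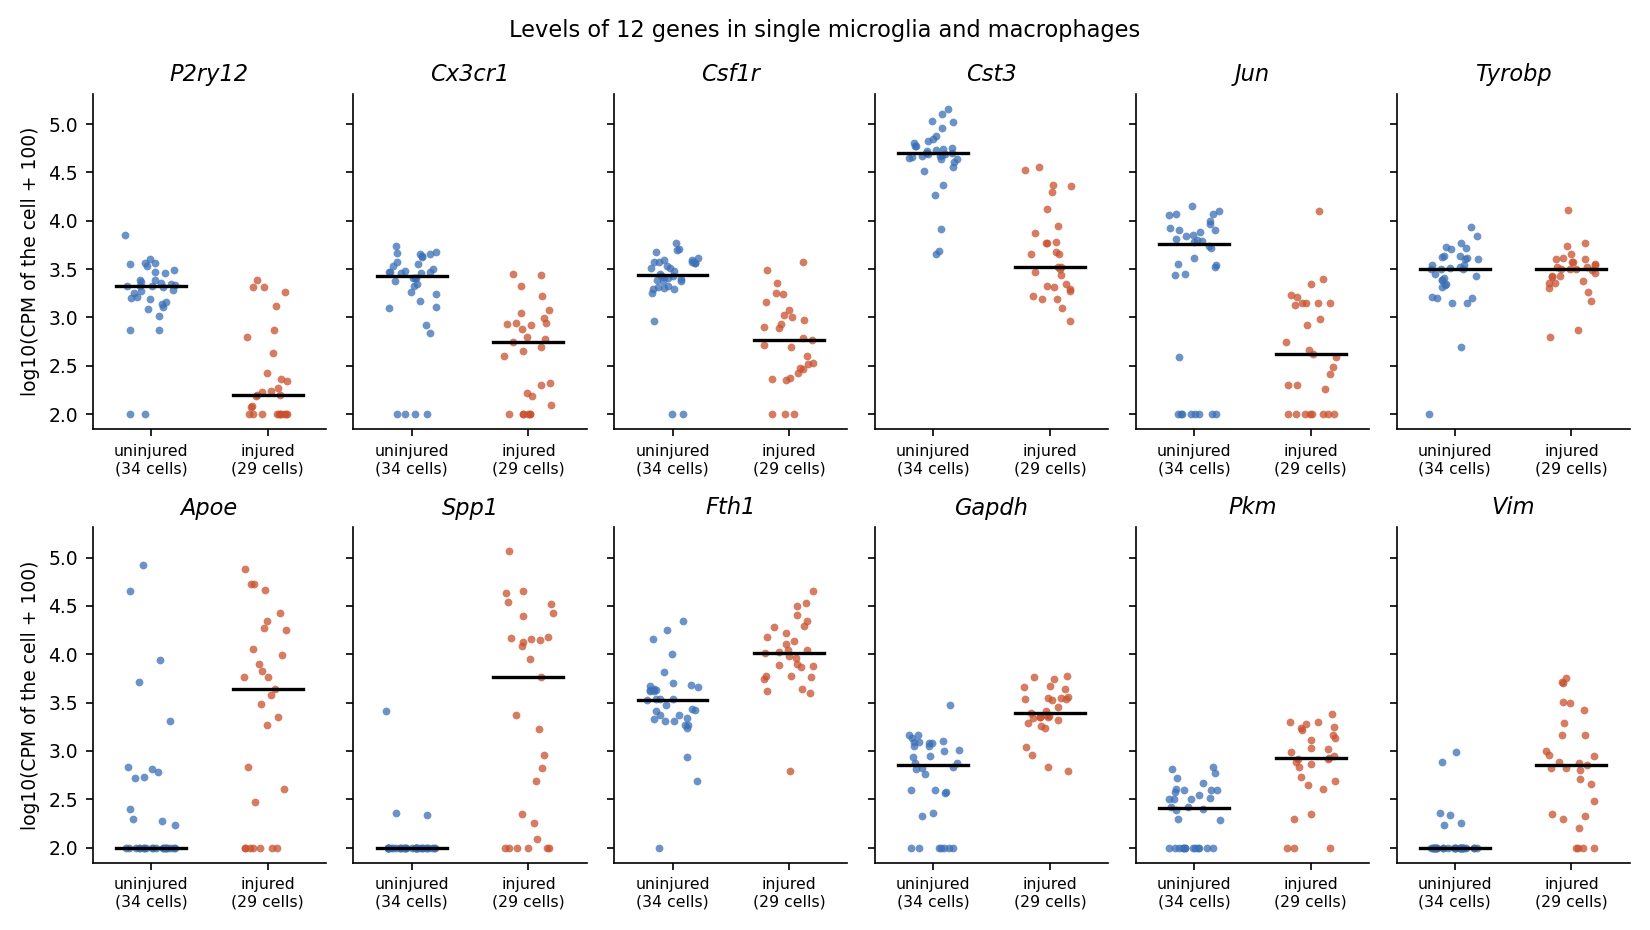
Level of 12 genes in each of the 34 uninjured and 29 injured microglia and macrophages, as log10 of the cell's CPM plus 100, with the median as a bar. P2ry12, Cx3cr1, Csf1r, Cst3 and Jun sit lower in injured cells, Tyrobp overlaps throughout, and Apoe, Spp1, Fth1, Gapdh, Pkm and Vim sit higher with some injured cells still at 0 for Apoe, Spp1, Pkm and Vim.

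Sensors of nucleotides, lipids and other signals overlapped the homeostatic list, with which they share 4 genes. Of 9 genes of this list above the floor, 7 were lower and 0 higher (median log2 -2.47), and 7 of the 9 passed the floor in the uninjured library only. The lower genes include Cmtm6 (361 and 45.7 CPM), which is not itself such a sensor. Gpr34, a receptor for lysophosphatidylserine, was 7.48-fold lower (6.23 to 9.03), and P2ry13, another ADP receptor, 8.74-fold lower (6.03 to 12.9). Of 12 myeloid transcription factors above the floor, 8 were lower and 0 higher (median log2 -1.19), and 6 of the 12 passed it in the uninjured library only. The master regulator Spi1 differed by less than 2-fold, at 479 CPM (394 to 578) and 313 CPM (273 to 356). Irf8, its partner in microglia, was 2.08-fold lower (1.64 to 2.62), Irf5 4.01-fold lower (2.67 to 6.03), Mef2a 3.51-fold lower (2.73 to 4.52) and Ikzf1 4.54-fold lower (2.89 to 7.20). Under TMM scaling the log2 ratio of Irf8 was -0.73, short of 2-fold.

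The Trem2 and Fc receptor apparatus differed less. Of 11 Fc receptor and Dap12 genes above the floor, 8 were under 2-fold, 1 was higher and 2 were lower (median log2 -0.60). Tyrobp had a lowest, median and highest cell of 0, 3062 and 8522 CPM in the uninjured library and 523, 3072 and 12704 CPM in the injured one, so the cells overlapped and the medians were close. Its sums were 3132 and 2868 CPM. Trem2 stood at 2252 and 1278 CPM, 1.76-fold lower (1.58 to 1.97), and Fcer1g, the common Fc receptor gamma chain, at 2159.7 and 2947 CPM. Lilrb4a, an inhibitory receptor, was 11.5-fold higher (5.22 to 31.8), with a UMI in 1 uninjured and 22 injured cells, so that the ratio rests on 6 UMIs of 1 uninjured cell. Inpp5d, the lipid phosphatase Ship1 that damps these receptors, was 4.45-fold lower (3.16 to 6.30). Of 11 phagocytic receptors above the floor, 5 were lower and 0 higher, and 4 of the 11 passed the floor in the uninjured library only. Among the lower ones were Mertk, a receptor for apoptotic cells (233 and 73.4 CPM), Sirpa, which reads the signal Cd47 (528 and 201 CPM), and Cd33 (211 and 96.9 CPM). Under TMM scaling the log2 ratio of Cd33 was -0.80, short of 2-fold.

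Genes of damage-associated microglia were higher in the summed cells of the injured library. Of 20 above the floor (of 30 listed), 13 were higher and 0 lower, with a median log2 ratio of 1.42, and 6 of the 20 passed the floor in the injured library only. The sums pool unlike cells. The injured cell with most Apoe (1993 UMIs) had 629 Lyz2 and 0 P2ry12 UMIs. The one with most Spp1 (4694 UMIs) had 21 Lyz2 and 3 P2ry12 UMIs. The part of a changed mix of microglia and macrophages in these differences was not tested. Spp1, the secreted matrix protein osteopontin, had a UMI in 3 of 34 uninjured and 23 of 29 injured cells. Its lowest, median and highest cells were 0, 0 and 2508 CPM in the uninjured library and 0, 5745 and 116131 CPM in the injured one, and 15 injured cells exceeded every uninjured cell. The sum stood at 145 CPM (99.9 to 204) and 24106 CPM (23749 to 24466), 166-fold higher (118 to 241), and 93.9% of the 33 uninjured UMIs came from 1 cell. With the top cell of each library left out, the log2 ratio of Spp1 was 10.66 instead of 7.35. EpA cells carried Spp1 at 3.64 and 987 CPM. After thinning, 1 of 34 uninjured (2.94%, 0.0744 to 15.3) and 20 of 29 injured cells (69.0%, 49.2 to 84.7) had an Spp1 UMI, against 0.544% and 10.8% of EpA cells.

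Apoe, the lipid carrier apolipoprotein E, was 2.88-fold higher (2.71 to 3.06), at 5208 and 14977 CPM. One uninjured cell held 87.2% of that library's Apoe UMIs, and without it the uninjured level was 702 CPM. With the top cell of each library left out, the log2 ratio of Apoe was 4.19 instead of 1.52. Fabp5, a fatty acid-binding protein, stood at 52.8 and 2130.5 CPM, with 47.8% of its injured UMIs in 1 cell. Of 5 lipid handling genes above the floor, 3 were higher and 1 was lower. Plin2, which coats lipid droplets, was 23.2-fold higher (10.6 to 63.7), at 26.4 and 613 CPM, and was seen in 5 uninjured and 21 injured cells. Lpl, lipoprotein lipase, was below the floor at 39.6 and 187 CPM. Lgals3, galectin-3, was 42.0-fold higher (17.9 to 129.9), from 5 UMIs in 2 uninjured cells, and Cd63, a tetraspanin of late endosomes, was 3.68-fold higher (2.98 to 4.58). With top cells left out, the log2 ratio of Lgals3 was 6.82 instead of 5.26 and the log2 ratio of Fabp5 6.17 instead of 5.28.

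Gpnmb, a glycoprotein of phagocytic macrophages, had 0 uninjured UMIs and stood at 291 CPM in the injured library. Set against 3 counts in the uninjured sum, the limit used here for every gene at 0, it was 22.03-fold higher (exact lower limit 17.8). Its 210 UMIs came from 7 cells, 69.0% of them from 1, and without it the injured level was 94.0 CPM, under the floor. That cell also held most Fabp5 (736 UMIs) and most Lgals3 (148) of the injured cells, with 704 Lyz2 and 0 P2ry12 UMIs. Of 25 lysosomal genes above the floor, 6 were higher, 3 lower and 16 under 2-fold (median log2 0.20). Cathepsins B and L, proteases of the lysosome, were higher, Ctsb at 1557 and 3894 CPM and Ctsl at 1298 and 3025 CPM. Ctss, the cathepsin that trims the invariant chain of MHC class II, was lower at 7328 and 2827 CPM.

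**Figure D3:**
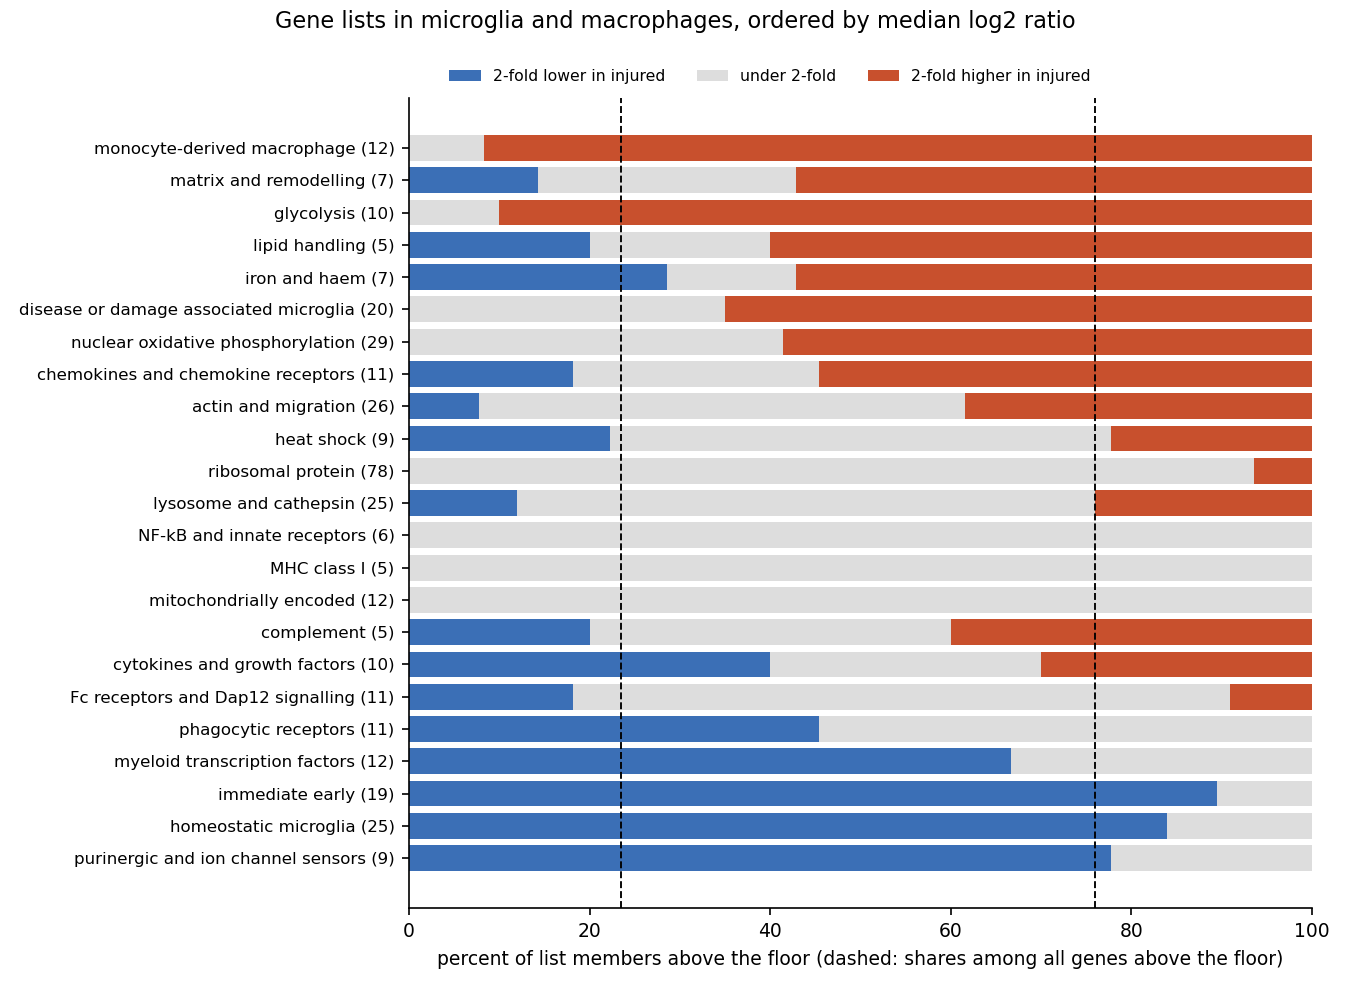
Share of the members above the floor of each gene list (number in brackets) that were 2-fold lower, under 2-fold or 2-fold higher in injured microglia and macrophages, ordered by median log2 ratio. Dashed lines mark the shares among all 882 genes, 23.5% lower and 24% higher; homeostatic, purinergic and immediate early lists are mostly blue, and glycolysis and monocyte-derived macrophage lists mostly red.

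Genes known from monocyte-derived macrophages were higher, most of them from a level near 0. Of 12 above the floor (of 28 listed), 11 were higher and 0 lower (median log2 4.44), but 10 of the 12 passed the floor in the injured library only and so could not be called lower. Lyz2, lysozyme, stood at 475 CPM (389.7 to 574) and 5461 CPM (5292 to 5634). Its lowest, median and highest cells were 0, 246 and 13229.6 CPM uninjured and 0, 519.5 and 22615 CPM injured, so the medians differed far less than the sums. Arg1, the arginase of repair-type macrophages, had 0 uninjured UMIs and 805 injured ones in 6 cells, 84.5-fold higher against 3 counts (exact lower limit 68.5). One cell held 49.9% of these UMIs, and without it the injured level of Arg1 was 588 CPM instead of 1114 CPM. Fn1, fibronectin, was 72.4-fold higher against 3 counts (exact lower limit 58.7), with 690 UMIs in 15 injured cells. Thbs1, the matrix protein thrombospondin 1, was at least 26.0-fold higher, with 248 UMIs in 9 injured cells. Of 26 actin and migration genes above the floor, 10 were higher and 2 lower (median log2 0.90), and 8 of the 26 passed it in the injured library only. Vim, an intermediate filament protein, stood at 57.2 and 1516 CPM (seen in 6 and 25 cells), and Lgals1, galectin-1, at 44.0 and 1089 CPM. Of the 1095 injured Vim UMIs, 223 and 192 lay in the 2 injured cells with most tdTomato. With top cells left out, the log2 ratio of Lgals1 was 5.97 instead of 4.56. Injured EpA cells carried Vim at 14246 CPM and Lgals1 at 1902 CPM, and the part of their free RNA in these values was not tested.

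The monocyte receptor Ccr2 was seen in 0 uninjured and 2 injured cells, and Ms4a7, a marker of recruited and border macrophages, in 0 and 9. Mrc1, the mannose receptor of border-associated macrophages, was seen in 0 uninjured and 4 injured cells. All 3 were below the floor, and a count of 0 among 34 cells allows a share of cells with a UMI of up to 8.82% (3 of 34 cells; the exact Clopper-Pearson limit is 10.3%). Pf4, a chemokine of platelets and border macrophages, was 39.8-fold higher against 3 counts (exact lower limit 32.2). However, 73.4% of its 379 UMIs came from 1 cell, and without it the injured level was 147 CPM, under the floor. The same cell held most Arg1 (402 UMIs). Of the 18 border-associated genes, 3 were above the floor, Pf4 and Dab2 higher and Maf lower. Under TMM scaling the log2 ratio of Maf was -0.98, short of 2-fold.

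Complement, MHC and inflammatory genes gave a mixed picture. Of 5 complement genes outside C1q above the floor, the receptors C3ar1 (119 and 267 CPM) and C5ar1 (74.8 and 208 CPM) were higher. When each cell was thinned to 1000 UMIs the log2 ratio of C5ar1 was -0.06, against 1.44 from the sums. C1qa, C1qb and C1qc stood at 8133, 8282 and 5243 CPM in the uninjured and 5878, 5697 and 3663 CPM in the injured library. All 5 MHC class I genes above the floor were under 2-fold (median log2 0.10). H2-D1, a class I heavy chain, stood at 915 CPM (795 to 1048) and 981 CPM (911 to 1056), and its partner B2m at 1957 and 1747 CPM. The class II invariant chain Cd74 was below the floor, with 23 uninjured UMIs, 91.3% of them in 1 cell, and 25 injured UMIs in 11 cells. H2-Aa gave 6 and 3 UMIs.

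Among chemokines and their receptors, 6 of 11 above the floor were higher and 2 lower (median log2 1.05), and 6 of the 11 passed the floor in the injured library only. Cxcl2, which draws neutrophils, had 0 uninjured UMIs and 633 injured ones in 11 cells, 66.4-fold higher against 3 counts (exact lower limit 53.8). Of the 633, 158 and 110 lay in the 2 injured cells with most tdTomato. Ccl2, which draws monocytes through Ccr2, was higher at 180.3 and 626 CPM. Those 2 cells held 123 and 79 of its 452 injured UMIs. Ccl3 and Ccl4, chemokines made by activated phagocytes, were abundant in both libraries, with Ccl3 at 1078 and 998 CPM and Ccl4 at 2173 and 2207 CPM. Ccl3 had a UMI in 14 uninjured and 19 injured cells. One cell held 56.7% of its uninjured UMIs and 1 cell 39.0% of its injured ones, and without these the levels were 493 and 641 CPM. Ccl4 was uneven between cells, with a lowest, median and highest cell of 0, 0 and 13430.4 CPM in the uninjured library and 0, 387 and 17079.6 CPM in the injured one. Of 10 cytokine and growth factor genes above the floor, 3 were higher and 4 lower (median log2 -0.46). Il1b, the cytokine interleukin 1 beta, stood at 21.99 and 209 CPM, with 3 uninjured and 6 injured cells carrying a UMI. Tnf stood at 96.8 and 364 CPM, with 41.4% of its injured UMIs in 1 cell. The receptor genes Ifngr1 and Tgfbr1 were 7.92-fold lower (6.03 to 10.5) and 7.49-fold lower (5.48 to 10.3).

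Of 25 interferon-response genes, 4 were above the floor, each in the injured library only, and all 4 were higher. Ifi27l2a stood at 66.0 and 785 CPM, Ifitm3, a membrane protein that blocks virus entry, at 79.2 and 754 CPM, and Bst2, tetherin, at 163 and 563 CPM. With top cells left out, the log2 ratio of Ifitm3 was 4.29 instead of 3.21. EpA cells carried Ifitm3 at 2632 and 3621 CPM and Ifi27l2a at 0 and 18.3 CPM. All 6 NF-kB and innate receptor genes above the floor were under 2-fold, including Cd14, a co-receptor for endotoxin, at 519 and 796 CPM.

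Genes of iron storage were higher. Of 7 genes of the iron and haem list above the floor, 4 were higher and 2 lower (median log2 1.49). The lower ones were Trf, transferrin (879.7 and 317 CPM), and Hpgd (659.8 and 151 CPM). Hpgd breaks down prostaglandins and is not itself an iron or haem gene, although the list counts it. Fth1, the ferritin heavy chain, had a lowest, median and highest cell of 0, 3285 and 21789.9 CPM uninjured and 523, 10284 and 44941 CPM injured, and 28 of 29 injured cells lay above the uninjured median. Its sum was 4.17-fold higher (3.89 to 4.47), and that of the light chain Ftl1 4.21-fold higher (3.92 to 4.52). Hmox1, haem oxygenase 1, was 15.6-fold higher (10.1 to 25.7), at 88.0 and 1375 CPM, with 46.6% of its injured UMIs in 1 cell. This is the injured cell that also held most Apoe (1993 UMIs), Arg1 (402) and Pf4 (278), with 629 Lyz2 and 0 P2ry12 UMIs. Mt2, a metallothionein, was 26.2-fold higher against 3 counts (exact lower limit 21.2), with 250 injured UMIs in 13 cells. Of these UMIs 44.8% lay in 1 cell, without which Mt2 stood at 207 CPM, while EpA cells carried it at 1967 and 2087 CPM.

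Of 10 glycolysis genes above the floor, 9 were higher and 0 lower (median log2 2.002), and 8 of the 10 passed it in the injured library only. Gapdh, which every glycolysing cell uses, had a UMI in 27 of 34 uninjured and 29 of 29 injured cells and was 4.13-fold higher (3.52 to 4.86), at 730.2 and 3014 CPM. Pkm, pyruvate kinase, had a lowest, median and highest cell of 0, 156 and 574 CPM uninjured and 0, 753 and 2337 CPM injured, and 20 injured cells exceeded every uninjured cell. Aldoa, aldolase, was 5.33-fold higher (3.94 to 7.37) and Ldha, which makes lactate, 4.51-fold higher (3.23 to 6.47). The exception was Hk2, a hexokinase, at 519 and 274 CPM. Nuclear genes of oxidative phosphorylation were higher in 17 of 29 cases and lower in 0 (median log2 1.14, with 12 of the 29 above the floor in the injured library only), Cox5a among them at 114 and 449.9 CPM. All 12 mitochondrially encoded genes were under 2-fold (median log2 0.04), and so were 73 of 78 ribosomal protein genes (median log2 0.40).

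Immediate early genes, which respond within minutes to stimulation, were lower in the injured library. Of 19 above the floor, 17 were lower and 0 higher (median log2 -1.88), and 2 of the 19 passed the floor in the uninjured library only. That median equals the value of Rhob, a gene on the homeostatic list, so the 2 lists are not read as separate. Jun, a subunit of the AP-1 factor, had a lowest, median and highest cell of 0, 5708 and 14133 CPM uninjured and 0, 319 and 12651 CPM injured, and 28 of 29 injured cells lay below the uninjured median. Its sums were 5854 CPM (5544 to 6178) and 937 CPM (868 to 1011). EpA cells carried Jun at 622 and 717 CPM, far below the uninjured microglia and macrophages and close to the injured ones. Fos, the partner of Jun, was 2.38-fold lower (2.17 to 2.61), at 3651 and 1534 CPM against 834 and 877 CPM in EpA cells. Under TMM scaling 14 immediate early genes were 2-fold lower, and the log2 ratio of Fos was -0.93, short of 2-fold. Egr1, a zinc-finger factor, was 5.00-fold lower (4.41 to 5.67), and Klf2 4.73-fold lower (4.13 to 5.43). Atf3 and Ier3 were under 2-fold. The heat shock gene Hspa1a was 6.02-fold lower (4.82 to 7.55), while Hspa5, the chaperone BiP of the endoplasmic reticulum, was 2.02-fold higher (1.76 to 2.31), and 5 of 9 heat shock genes were under 2-fold.

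Transcripts of dividing cells were found in the injured library. Of 10 core genes of division (Mki67, Top2a, Cenpf, Birc5 and others of the G2 and mitosis list), at least 3 were detected in 0 of 34 uninjured cells, which allows a share of up to 8.82% (3 of 34 cells, 10.3% by Clopper-Pearson), and in 12 of 29 injured cells (41.4%, 23.5 to 61.1). This limit was set after the values had been seen. Those 12 cells held 97.6% of the 777 core UMIs of the injured library, and their median depth was 34126.5 UMIs, above that of all injured cells, and the part of depth in the share was not tested. Mki67, the proliferation antigen, had 0 uninjured UMIs and 116 injured ones in 11 cells, and Top2a, a topoisomerase of mitosis, 0 and 113 in 11. The 2 injured cells with most tdTomato held 13 and 16 of these Mki67 UMIs and 17 and 18 of these Top2a UMIs. After thinning, 0 of 34 and 3 of 29 cells (10.3%, 2.19 to 27.4) had an Mki67 UMI, against 0.363% and 4.81% of EpA cells. All 4 genes of the G2 and mitosis list above the floor were higher, each above it in the injured library only. Stmn1, a regulator of microtubules, was 13.2-fold higher (6.34 to 33.2), at 30.8 and 407 CPM. Injured EpA cells carried Mki67 at 101 CPM and Top2a at 178 CPM, and their part in these values was not tested.

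Transcripts of the sort marker were few. The annotated tdTomatoWRPE sequence gave 9 UMIs in 7 of 34 uninjured cells, 39.6 CPM (18.1 to 75.1), and 90 UMIs in 19 of 29 injured cells, 125 CPM (100.2 to 153). EpA cells stood at 645 and 1716 CPM, and the other kept cells outside EpA at 883 and 1971 CPM. After thinning, 1 of 34 (2.94%, 0.0744 to 15.3) and 3 of 29 cells (10.3%, 2.19 to 27.4) had a tdTomato UMI, against 47.5% and 73.5% of EpA cells. For each UMI of the 10 ependymal markers these cells had 0.562 and 1.84 tdTomato UMIs, against 0.0421 and 0.341 in EpA cells and 1.46 and 3.02 in the other cells outside EpA. The ratio in the microglia and macrophages rests on 16 and 49 ependymal UMIs, of which Tppp3 and Nnat held 8 and 34. Without these 2 genes, a choice made with the data known, it was 1.13 and 6.00. On the same 8 genes it was 0.0697 and 0.677 in EpA cells and 2.69 and 6.34 in the other cells outside EpA.

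In the injured library 56 of the 90 tdTomato UMIs came from 2 cells, with 34 and 22 UMIs among totals of 43905 and 38605. Without them the injured level was 53.1 CPM (36.8 to 74.3), with 1.31 tdTomato UMIs for each UMI of the 10 ependymal markers (3.40 for the 8 genes other than Tppp3 and Nnat), and without the top cell alone it was 82.5 CPM. The 2 cells stood at 774 and 570 CPM, above 20.5% and 15.4% of injured EpA cells. A shallow cell of 1721 UMIs stood higher, at 1743 CPM, from 3 tdTomato UMIs. Both held many Lyz2 UMIs (468 and 422), and both carried Mki67 (13 and 16 UMIs) and Top2a (17 and 18 UMIs). They also held 7 and 16 UMIs of the 10 ependymal markers, of 49 in all 29 cells. Whether these droplets held a second cell was not tested.

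**Figure D4:**
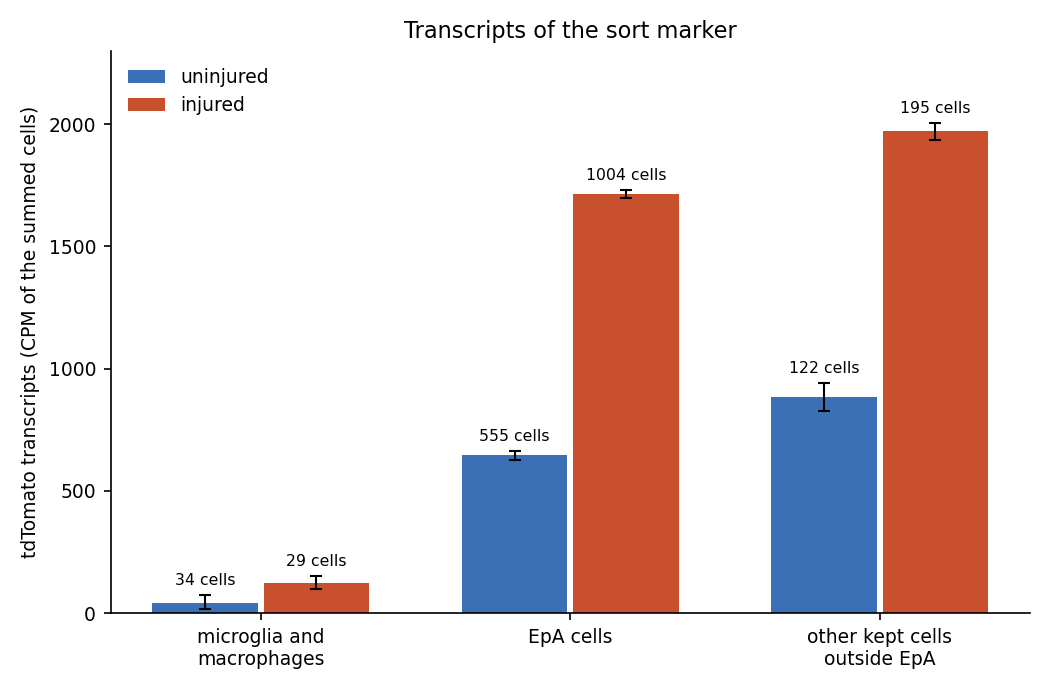
Level of tdTomato transcripts in the summed microglia and macrophages, EpA cells and other kept cells outside EpA of each library, as CPM on a linear axis, with exact 95% Poisson intervals and the number of cells above each bar. Microglia and macrophages stand at 39.6 and 125 CPM, under the 645 and 1716 CPM of EpA cells.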

How the data were processed

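Single-cell RNA was measured in 2 libraries, 1 uninjured and 1 injured. The deposited tables hold UMI counts per gene and cell barcode (876 and 1566 barcodes), made by the authors with Cell Ranger 3.0.1 and Seurat on the mm10 build, per the submitters' processing notes; settings and annotation: not given in the sources used here. Which cells the authors kept, and which formed their EpA set, was read from the names in 2 further deposited tables. No columns of other samples were found (0).

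Counts of the 63 chosen cells were summed per library (227348 and 722365 UMIs) and divided by that sum to give CPM. Intervals at 95% are exact (Poisson for a level, binomial given the total for a ratio, Clopper-Pearson for a share) and cover counting error only. With 1 library per condition, genes were called by size: 2-fold, at least 200 CPM and 10 UMIs in the higher library. Log2 ratios used 0.5 added counts, and a gene at 0 in one library was set against 3 counts in that library. The limit given for a share of 0 is likewise 3 cells of the total. For shares of cells, cells were sampled down to 1000 UMIs each, and 4 uninjured and 6 injured EpA cells were too shallow for that. The genes of the choosing rule were left out of the counts of genes and lists.

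The text names the 15 largest and the 15 smallest ratios (leaving out predicted, clone-named, mitochondrial, ribosomal and choosing genes), up to 4 genes per list with the largest absolute log2 ratio, and fixed genes; not all of these are printed, and some results are not reported here. The members and the gene lists were chosen with earlier results of these data known. Some list members given as examples were picked after their values had been seen.

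The calls were tested on simulated counts for this comparison, with 17189 genes and 50 changed genes of each size and direction. At 4-fold, 50 higher and 48 lower genes were recovered. At 3-fold these numbers were 50 and 46, and 0 of 529 unchanged genes were called. The simulated sums held counting error alone, and the changed genes had a mean level of at least 200 CPM. Differences between cells were not simulated, although 1 cell held 87.2% of the uninjured Apoe UMIs. The 0 of 529 therefore cannot show false calls that come from single cells or from the mix of cells. Alternatives were TMM scaling (edgeR 4.0.16, R 4.3.3, normalisation factors only), other floors, other C1q limits, depth and mitochondrial limits, equal weighting of cells and leaving out cells. Python 3.11.15, numpy 2.4.6, pandas 2.3.3, scipy 1.17.1 and matplotlib 3.10.9 were used.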

Additional observations from a re-analysis of the deposited data

Results flagged for a closer look

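Signal of the C1q genes was also found outside the cells described. Among the barcodes that the authors did not keep, 6 of 338 in the injured library (1.78%) and 2 of 165 in the uninjured library (1.21%) held 10 or more C1q UMIs, with median depths of 2881.5 and 3841 UMIs. One EpA cell of the injured library held 22 C1q UMIs among 26435, together with 7 Tyrobp, 13 Tmem212 and 43 tdTomato UMIs, while no uninjured EpA cell held more than 1 C1q UMI.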

How the results depend on the processing

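No paired analysis was possible because each condition has 1 library and no comparison came from a test. Of 97 called genes named by rule, 95 kept their direction in all 13 alternatives run for them, 10 planned and 3 chosen after seeing the data. The exceptions were the log2 ratio of C5ar1 (-0.060) and the log2 ratio of H2-DMa (0.23), both when cells were thinned to 1000 UMIs, which also turned the median log2 ratio, border-associated macrophage list, to -2.58. Of all 419 called genes, 396 kept their direction after thinning, with 98 of the 212 higher and 113 of the 207 lower ones still called. With every cell weighted alike 417 kept it, and 148 higher and 154 lower were still called. Without the 2 injured cells with most tdTomato all 419 kept it, and 200 higher and 199 lower were still called. TMM scaling gave 339 genes higher; it kept the 212 and 148 of the lower genes. A floor of 500 CPM gave 86 higher and 79 lower, and no floor gave 1342 and 2762, with 21 damage-associated genes higher. In these 3 alternatives the scale or the number of genes tested differs by construction. The floors leave each ratio as it was, and TMM scaling moves every log2 ratio by the same amount, smaller than a 2-fold call. The direction of a called gene could not turn in these 3, so they add nothing to the counts of kept directions. The injured tdTomato level was 153 CPM with every cell weighted alike, 82.5 CPM without the cell with most tdTomato and 53.1 CPM without the 2 cells with most. A count of 0 allows up to 3 UMIs, or 13.2 CPM in the uninjured and 4.15 CPM in the injured sum.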
